A study of Drosophila melanogaster with 12 samples.

Results

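The cytochrome P450 genes of Drosophila melanogaster were followed in adult males of the wild-type strain Canton-S that ate a control or a high-sugar diet for 2 days or for 4 weeks. A gene counted as a P450 gene when its current symbol was Cyp followed by a number and a lower-case letter, and 81 such genes stood among the 11982 genes that the array's probe sets name singly. The males were 3 to 5 days old when feeding began, lived in single-sex vials, and were 5 to 7 days old after 2 days of feeding and 31 to 33 days old after 4 weeks, so feeding time and age cannot be told apart. Each of the 4 groups held 3 arrays labelled as biological replicates, 12 in all, and no group carried a transgene or a mutation by its labels. How many flies went into a replicate is not given in the sources used here. Total RNA was taken from homogenized flies, so fewer cells of a tissue and less P450 RNA per cell cannot be told apart in any value below.

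P450 enzymes are heme proteins that insert 1 atom of oxygen into their substrates. Most sit in the endoplasmic reticulum and take electrons from cytochrome P450 reductase or cytochrome b5, and the mitochondrial ones take them from ferredoxin. Insect P450 genes fall into the CYP2, CYP3, CYP4 and mitochondrial clades. The CYP2 and mitochondrial clades hold the enzymes that make and break down the steroid hormone ecdysone. Much of the CYP3 clade and part of the CYP4 clade are known for the oxidation of insecticides and plant compounds, mainly in midgut, Malpighian tubules and fat body. Other CYP4 enzymes act on fatty acids and hydrocarbons.

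The 81 genes formed 20 families and 45 subfamilies, and each family was placed in a clade by hand from general knowledge of insect P450 names, with 4 genes in the CYP2 clade, 37 in the CYP3 clade, 32 in the CYP4 clade and 8 in the mitochondrial clade. By chromosome arm, 33 lay on 2R, 15 on 3R, 14 on X, 13 on 2L and 6 on 3L. Each gene was read from its probe set with the highest mean; Cyp12e1 and Cyp18a1 had 2 probe sets and every other gene 1. A total of 75 genes passed the filter on low signal and were tested with limma among 10418 genes. The other 6 genes, Cyp303a1, Cyp308a1, Cyp313a2, Cyp313a3, Cyp313a5 and Cyp316a1, were under it, with intensities of 3.37 to 26.3 over all arrays. One of these, Cyp303a1, is needed for the development of sensory bristles, and its arrays lay at 9.20, 3.87 and 4.13 on control diet and 3.37, 6.44 and 7.49 on high sugar at 2 days, and at 8.35, 5.92 and 5.59 against 3.99, 5.499 and 6.52 at 4 weeks. Every one of these Cyp303a1 values was under the floor of 11.8 applied before testing, so they have no order.

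Over all genes, pairs of arrays within a group correlated at 0.984 to 0.993 (Pearson's r over genes, which are not independent replicates). The P450 genes stood low on 3 arrays in particular. The 2-day high-sugar array 2 was the lowest of its group for 47 of the 75 P450 genes (62.7%), against 31.0% of all genes tested. The 4-week high-sugar array 3 was the lowest for 49 (65.3%, against 37.7%), and 4-week control array 1 for 41 (54.7%, against 32.3%). These arrays bear the same labels as the rest of their groups, and family medians, calls and larger gene values that shifted without one of them are also given without it. With 3 arrays against 3, an exact permutation test of a single gene cannot go below p = 0.1, so the tests below are limma's adjusted p over all 10418 genes, with a threshold of 0.05.

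At 2 days no P450 gene passed the threshold between high-sugar and control diet, where 0.144% of all genes did, all of them lower. The lowest adjusted p of a P450 gene was 0.321. At an unadjusted p under 0.05 in the limma fit there were 15 P450 genes of 75 (20%), against 8.31% of all genes. That share is not given without 2-day high-sugar array 2, the lowest of its group for 62.7% of the P450 genes. The P450 log2 fold changes, high sugar over control, ran from -0.58 to 0.75 with a median of -0.05, and the median over all genes was -0.004. Without 2-day high-sugar array 2 the P450 median was 0.02, over the 74 P450 genes then tested. Without 2-day high-sugar array 1, Cyp6w1 alone passed, at a limma adjusted p of 0.0401.

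At 4 weeks 1 P450 gene rose on high sugar and 3 fell, 5.33% of the 75, against 1.93% of all genes (0.806% higher and 1.12% lower). Cyp4e3 rose and Cyp309a1, Cyp4s3 and Cyp9b2 fell. After quantile normalization 2 rose and 2 fell. The median P450 log2 fold change was -0.02, against 0.01 over all genes, and was 0.01 without 4-week high-sugar array 3 and -0.08 without 4-week control array 1. By clade, 2 of the 36 tested CYP3 genes and 2 of the 28 CYP4 genes passed, and none of the 8 mitochondrial and 3 CYP2 genes did. Over the average of both times, 2 P450 genes rose (Cyp4e3 and Cyp4e1) and 5 fell (Cyp309a1, Cyp309a2, Cyp4s3, Cyp12d1-d and Cyp6g1), 9.33% of the 75 against 2.62% of all genes (0.893% higher and 1.73% lower). The count of 4 at 4 weeks fell to 2 without 2-day control array 1, 2 or 3, 4-week control array 1 or 3 or 4-week high-sugar array 2, fell to 0 without 4-week high-sugar array 3, and was 7 without 2-day high-sugar array 2. Such counts include genes called only in the alternative. Without 4-week control array 1 or 4-week high-sugar array 2, 1 of the 4 calls was kept. Without 4-week control array 2 the count stayed at 4. There Cyp309a1, Cyp4s3 and Cyp9b2 were lost, and Cyp313a1, Cyp4e1 and Cyp6a20 passed instead. The average count of 7 fell to 4 without 2-day control array 1, 2-day high-sugar array 3 or 4-week control array 1 or 3, to 3 without 2-day control array 2 or 4-week high-sugar array 3, and to 2 without 4-week high-sugar array 2. A fit with the replicate number as a block kept none of the 4-week calls. On average it lost those of Cyp4e1, Cyp4e3 and Cyp6g1. The losses listed by gene below leave this block fit out. Of the 71 P450 genes that missed the threshold at 4 weeks, 9 passed in at least 1 alternative (Cyp12c1, Cyp12d1-d, Cyp309a2, Cyp313a1, Cyp4e1, Cyp4g15, Cyp6a20, Cyp9f2 and Cyp9h1), as did 7 of the 68 on average (Cyp18a1, Cyp28d1, Cyp313a1, Cyp4e2, Cyp6d5, Cyp6w1 and Cyp9b2).

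**Figure D1:**
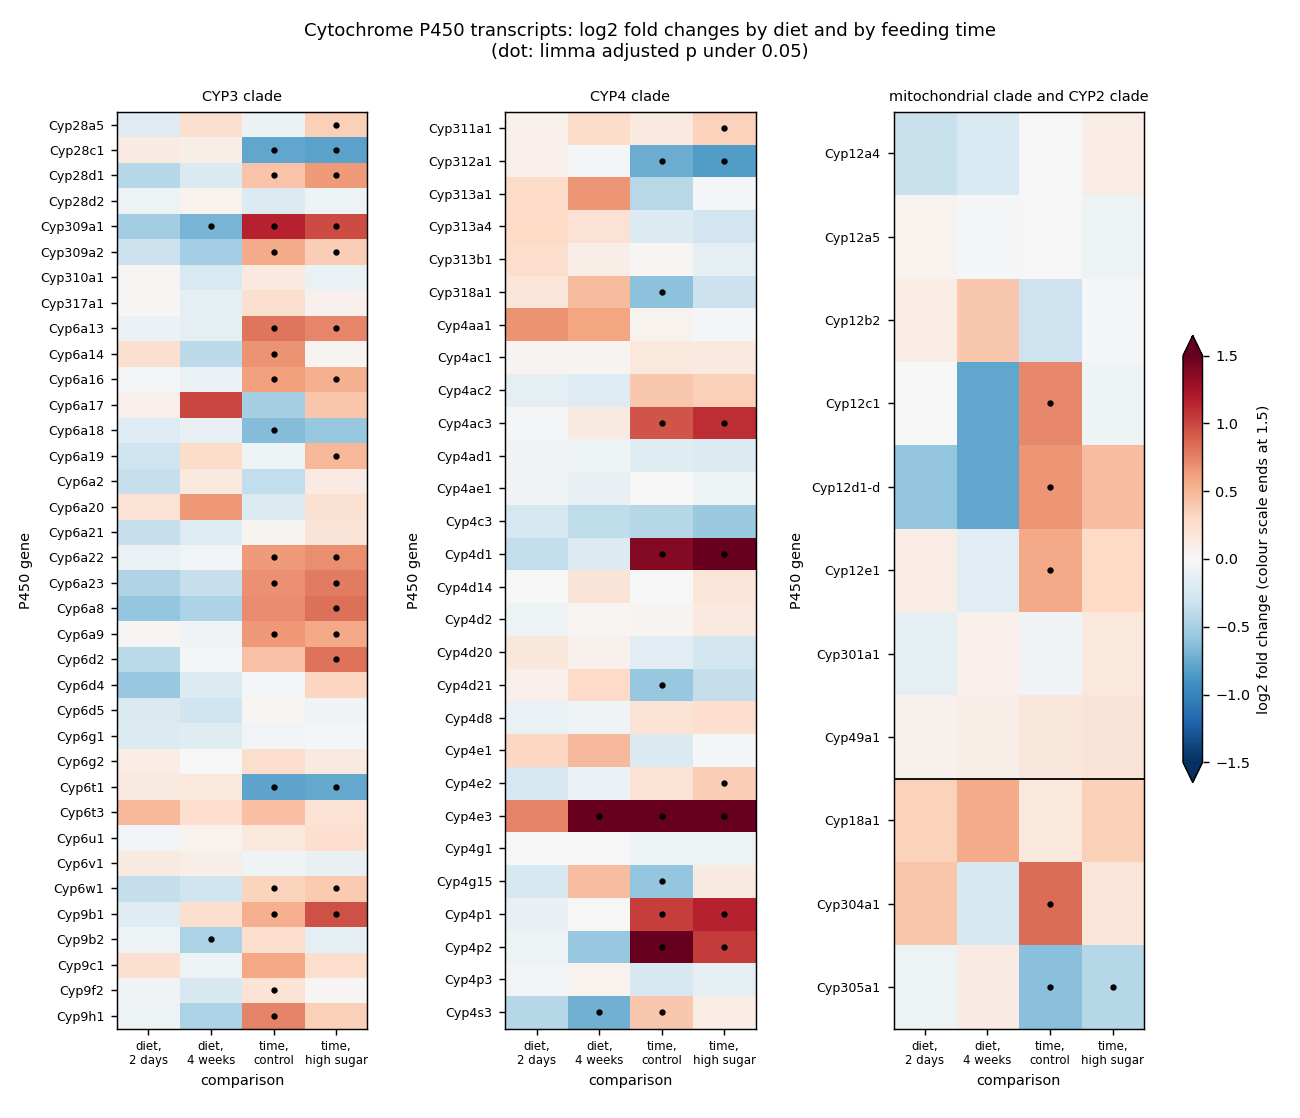
Log2 fold changes of the 75 tested P450 genes (rows, by clade) for high sugar over control at 2 days and 4 weeks and for 4 weeks over 2 days on each diet (columns). Red is higher, blue is lower, the colour scale ends at 1.5, and a dot marks a limma adjusted p under 0.05; the dots number 0 and 4 in the diet columns and 31 and 25 in the time columns.

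The Cyp4e subfamily held both genes that rose by diet. Cyp4e3 is known for its part in tolerance to the insecticide permethrin in Malpighian tubules. At 2 days its intensity was 130.5, 311 and 193 on control diet and 225, 221 and 745 on high sugar. At 4 weeks it was 485, 1099 and 359 on control diet and 2810.1, 2789.9 and 1871 on high sugar. The 4-week groups did not overlap, whereas at 2 days a single high-sugar array, the third, stood above the others. The log2 fold change was 2.09 ± 0.48 (standard error, n = 3 arrays a group) at 4 weeks, 4.25-fold, with a limma adjusted p of 0.0465, and 0.75 ± 0.48 at 2 days (adjusted p = 0.749). The difference between those diet effects was 1.34 ± 0.68 (limma adjusted p = 0.686), so a larger effect at 4 weeks was not shown. Cyp4e3 lost its 4-week call without 2-day control array 3, 4-week control array 1 or 3 or 4-week high-sugar array 1, 2 or 3, or with no filter, with an untrended eBayes or with robust eBayes (adjusted p up to 0.17). With no filter the dimmest genes enter the eBayes trend and the adjustment too. The untrended and robust forms of eBayes share the variance between genes in other ways. Averaged over both times it was 1.42 higher on the log2 scale (limma adjusted p = 0.0452), a call lost without 2-day control array 1 or 3, 2-day high-sugar array 3, 4-week control array 1 or 3 or 4-week high-sugar array 1, 2 or 3, or with no filter, with an untrended eBayes, with robust eBayes or after quantile normalization (up to 0.117).

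Cyp4e1 gave 269, 271 and 260.2 on control diet and 345, 316 and 330.1 on high sugar at 2 days, and 195, 287 and 217 against 374, 299.7 and 299 at 4 weeks. Every high-sugar array lay above every control array of the same time. The average log2 fold change was 0.40 ± 0.10 (limma adjusted p = 0.0438), made of 0.31 at 2 days and 0.49 at 4 weeks. It was lost without 2-day control array 1, 2 or 3, 2-day high-sugar array 1, 2 or 3, 4-week control array 1 or 3 or 4-week high-sugar array 1, 2 or 3, or with no filter or with an untrended eBayes (adjusted p up to 0.0941). The remaining gene of the subfamily, Cyp4e2, was at 5328, 5732 and 5348 on control diet and 5209.5, 4159.99 and 4491 on high sugar at 2 days, and at 6349, 6458 and 6186 against 6302, 5971 and 5624 at 4 weeks. At 2 days all Cyp4e2 high-sugar arrays lay under all control arrays, at -0.25 (limma adjusted p = 0.325). Its diet groups overlapped at 4 weeks, and neither its 4-week value (-0.09) nor its average (-0.17, limma adjusted p = 0.123) passed. Cyp4e1 and Cyp4e2 neighbour each other on 2R.

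The Cyp309a pair lay next to each other on 2L, with no other protein-coding gene between, and both were lower on high sugar. Cyp309a1 gave 557, 630.01 and 619 on control diet and 421, 336 and 519 on high sugar at 2 days, and 1489, 1411 and 1149.6 against 958, 794 and 747 at 4 weeks. For Cyp309a2 the arrays read 1148, 1354 and 1201 on control diet and 1101, 812 and 1062 on high sugar at 2 days. At 4 weeks Cyp309a2 stood at 1877, 1850.2 and 1718 on control diet and 1371, 1167 and 1291 on high sugar. At both times all high-sugar arrays of either gene lay under all control arrays. Cyp309a1 changed by -0.70 ± 0.16 on the log2 scale at 4 weeks (limma adjusted p = 0.0418), by -0.52 ± 0.16 at 2 days (adjusted p = 0.321) and by -0.61 ± 0.11 on average (adjusted p = 0.0124). For Cyp309a2 the 4-week value of -0.51 ± 0.12 missed the threshold (limma adjusted p = 0.0502) and the average of -0.42 ± 0.09 passed (0.0206). The 4-week call of Cyp309a1 was lost without 2-day control array 1, 2 or 3, 2-day high-sugar array 1, 4-week control array 1 or 2 or 4-week high-sugar array 2 or 3, or with no filter, with an untrended eBayes or in a fit of only the arrays compared (up to 0.157), and its average call held in all alternatives tried. The average call of Cyp309a2 was lost without 2-day control array 2 or 4-week high-sugar array 2 (up to 0.0615).

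Cyp4s3 and Cyp9b2 were the other genes that fell at 4 weeks. Cyp4s3 read 155, 194 and 173 on control diet and 145, 106 and 139 on high sugar at 2 days, and 221, 267 and 206 against 139, 155 and 124 at 4 weeks. Its diet groups were apart at both times, and its log2 fold change was -0.73 ± 0.15 at 4 weeks (limma adjusted p = 0.0233), -0.43 ± 0.15 at 2 days (0.374) and -0.58 ± 0.10 on average (0.0108). The 4-week call was lost without 4-week control array 2 or 4-week high-sugar array 1 or 3, or with no filter (up to 0.104), and the average call held in all alternatives tried. Cyp9b2 gave 2237, 2152 and 1941 on control diet and 2135, 1702 and 2185 on high sugar at 2 days, which overlapped. At 4 weeks its arrays were 2467, 2703 and 2411 on control diet and 1986, 1771 and 1704 on high sugar, which did not. The 4-week log2 fold change was -0.47 ± 0.11 (limma adjusted p = 0.0418), against -0.08 at 2 days, and the difference of -0.40 did not pass (adjusted p = 0.655). This call was lost without 2-day control array 1 or 2, 4-week control array 1, 2 or 3 or 4-week high-sugar array 2 or 3, or with no filter, with an untrended eBayes, in a fit of only the arrays compared or after quantile normalization (up to 0.157).

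Cyp12d1-d and Cyp6g1 passed on the average of both times. Both are known from insecticide metabolism: Cyp12d1 is an inducible mitochondrial P450, and overexpression of Cyp6g1 gives resistance to DDT and neonicotinoids. Cyp12d1-d gave 97.9, 106 and 111 on control diet and 71.1, 51.6 and 93.6 on high sugar at 2 days, and 217, 139 and 153 against 105, 103 and 83.0 at 4 weeks. The diet groups did not overlap at either time, and the average log2 fold change was -0.68 ± 0.14 (limma adjusted p = 0.024). Cyp12d1-d has a near-identical neighbouring copy, Cyp12d1-p, so its signal may come from either copy. Its call was lost without 2-day control array 2 or 4-week high-sugar array 2 or 3, or with no filter (up to 0.0756). Cyp6g1 stood at 9601, 9174 and 9792 on control diet and 8558, 8138 and 8080.3 on high sugar at 2 days, and at 9154, 9134 and 9497 against 8966, 8204 and 7341 at 4 weeks. Its diet groups were apart at both times by a small step, an average of -0.20 ± 0.05 on the log2 scale (limma adjusted p = 0.0386). That call was lost without 2-day control array 1, 2 or 3, 2-day high-sugar array 2 or 3, 4-week control array 1 or 3 or 4-week high-sugar array 2 or 3, or with no filter, with an untrended eBayes or after quantile normalization (up to 0.131).

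**Figure D2:**
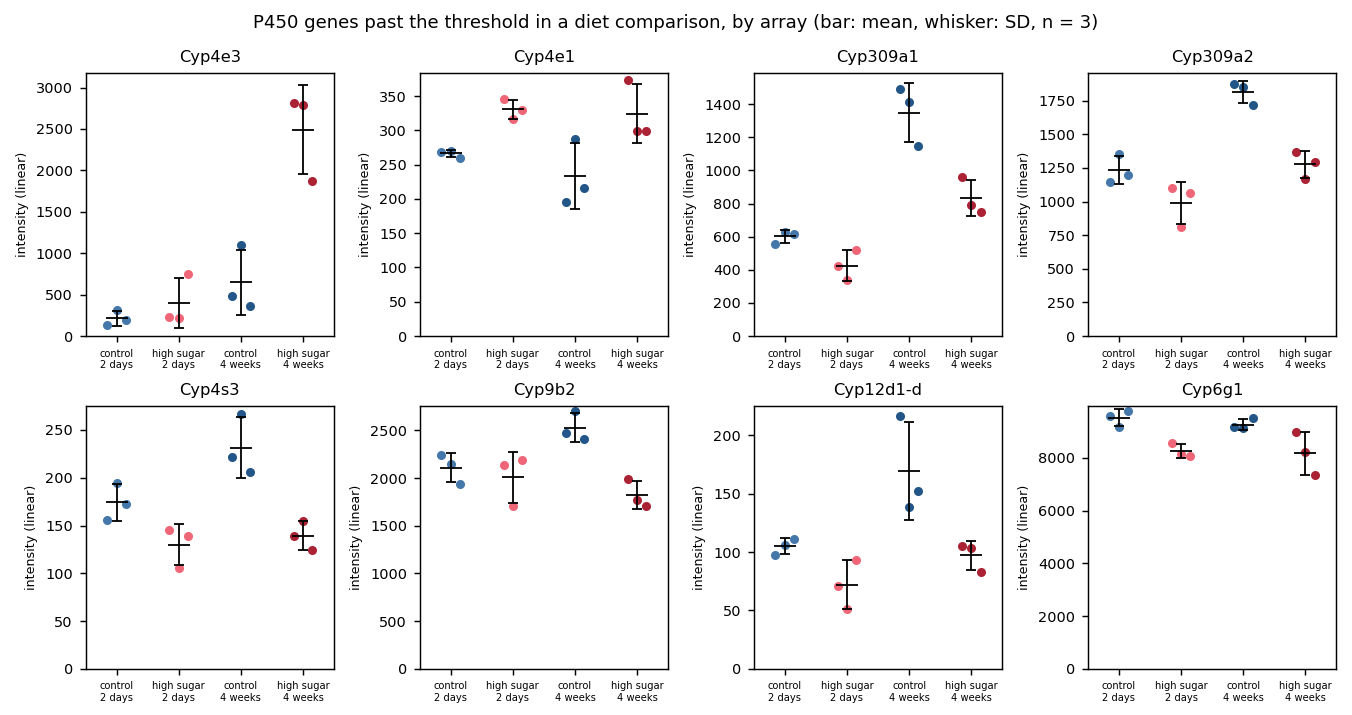
Intensity (linear, y axis from 0) of the 8 P450 genes that passed the threshold in a diet comparison, for each array of the 4 groups (x axis); points are arrays, the bar is the mean and the whisker the SD of 3 arrays. Cyp4e3 on high sugar at 4 weeks lies between 1871 and 2810, above all arrays of its other groups, and the Cyp309a1 and Cyp309a2 arrays on high sugar lie under the control arrays of the same time.

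No P450 gene passed the test of a difference between the diet effects at 4 weeks and 2 days, and 0% of all genes did. At an unadjusted p under 0.05 the limma fit gave 6 P450 genes of 75, against 7.27% of all genes. The P450 differences ran from -0.79 (Cyp12c1) to 1.34 (Cyp4e3). Cyp4g15, the paralog of Cyp4g1, was at 462, 441 and 397 on control diet and 369.5, 344 and 383 on high sugar at 2 days, and at 277, 285 and 310.3 against 486, 316 and 417 at 4 weeks. High sugar was below control at 2 days and above it at 4 weeks on all Cyp4g15 arrays, and the difference of 0.71 ± 0.19 did not pass (limma adjusted p = 0.542).

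**Figure D3:**
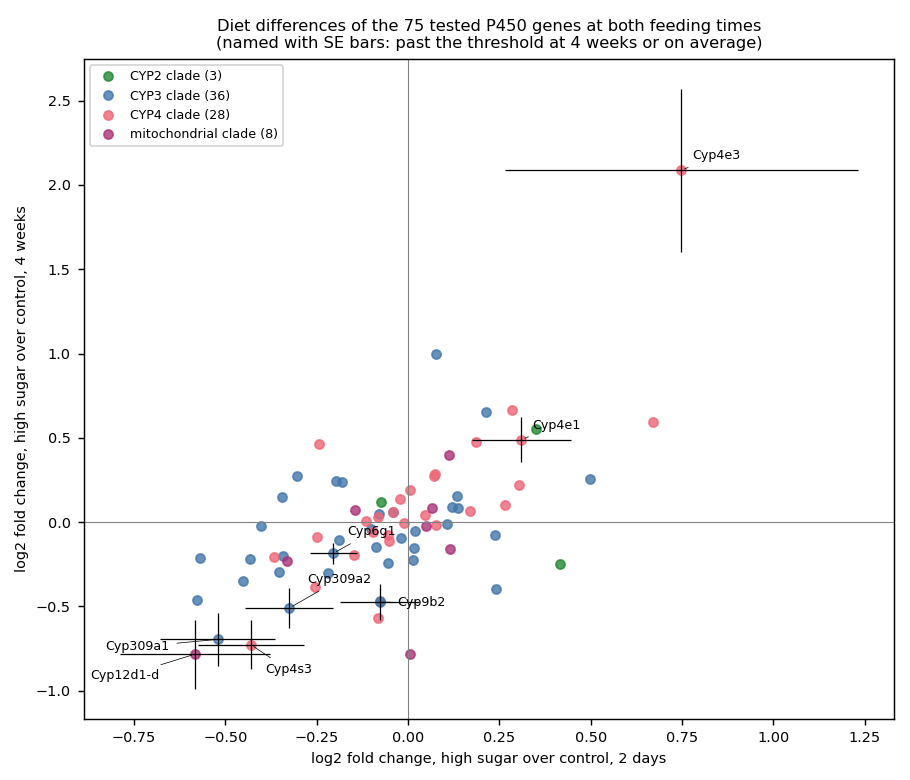
Log2 fold change of high sugar over control at 2 days (x axis) and at 4 weeks (y axis) for the 75 tested P450 genes, coloured by clade; the 2 comparisons share no arrays. The 8 named genes passed at 4 weeks or on average, with standard error bars. Cyp4e3 lies highest at 2.09 at 4 weeks, and Cyp309a1, Cyp309a2, Cyp4s3 and Cyp12d1-d lie in the lower left corner.

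Several P450 genes had diet differences of like size that did not pass the threshold, and they are given as values only. Of the other genes known from insecticide metabolism or induction, Cyp6a2, Cyp6a8, Cyp6g2 and Cyp12a4 did not pass in any diet comparison. Cyp6a2, which phenobarbital induces, read 2407, 2702 and 3150.05 on control diet and 1829, 2878 and 1902 on high sugar at 2 days, and 1655, 3118 and 1852 against 2304, 2389.8 and 2357 at 4 weeks, so its groups overlapped at both times. Cyp6a8, inducible by caffeine and phenobarbital, read 971, 1441 and 1039.8 against 806, 492 and 1105 at 2 days on control diet and high sugar, and 1574, 2354 and 1724 against 2061, 1155 and 1021 at 4 weeks. Its groups overlapped too, with log2 fold changes of -0.58 ± 0.30 at 2 days (-0.26 without high-sugar array 2) and -0.46 ± 0.30 at 4 weeks (-0.27 without high-sugar array 3). Cyp6g2, which metabolizes insecticides when overexpressed, stayed between 44.4 and 73.3 on all 12 arrays, with diet values of 0.11 and -0.01. Cyp12a4, linked to lufenuron resistance when overexpressed, gave 3838, 3223 and 3427 against 2944, 3011 and 2399 on control diet and high sugar at 2 days. At 4 weeks Cyp12a4 gave 3383, 3577 and 3584 on control diet and 3341, 3252 and 2480.3 on high sugar. All Cyp12a4 high-sugar arrays lay under the control arrays of the same time, at -0.33 ± 0.12 and -0.23 ± 0.12 (average -0.28, limma adjusted p = 0.0978). The 4-week value of Cyp12a4 was -0.09 without high-sugar array 3.

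Among the genes with other known roles, Cyp18a1, the hydroxylase that inactivates ecdysone, gave 375, 321 and 529 on control diet and 508, 495 and 526 on high sugar at 2 days. At 4 weeks it gave 379.9, 508 and 457 on control diet and 769, 634 and 572 on high sugar, with all high-sugar arrays above control, at 0.55 ± 0.17 (limma adjusted p = 0.118). Cyp6a17, which has been tied to temperature preference and pyrethroid tolerance, read 237, 139.8 and 260.1 against 168, 479.6 and 126 at 2 days on control diet and high sugar, and 106, 204 and 140.5 against 282, 349 and 247 at 4 weeks. The groups were apart at 4 weeks only, at 0.999 ± 0.41 (adjusted p = 0.2), and high-sugar array 2 stood far above its group at 2 days. Cyp6a20, linked to aggression, read 813, 764 and 616 against 767, 932 and 832 at 2 days, and 443, 1203 and 463 against 1582, 889 and 686 at 4 weeks, where control array 2 stood far above the other control arrays. Its 4-week value was 0.66 ± 0.35 (limma adjusted p = 0.306). Without control array 2 it was 1.12 and passed (0.044), and without control array 1 it was 0.40. Cyp301a1, which acts in cuticle formation, stayed between 31.8 and 44.6 on all arrays. Cyp4g1, the oxidative decarbonylase that completes hydrocarbon synthesis in oenocytes, lay between 14663 and 16579 on all arrays, at the top of the intensity range, with diet values of -0.01 and -0.0049 and time values of -0.08 on control diet and -0.07 on high sugar. Compression near that limit was not tested.

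The CYP3 genes with large diet values that missed the threshold were mostly lower on high sugar at 2 days. Cyp6d4 was at 453, 599 and 605 on control diet and 377, 325 and 409.98 on high sugar at 2 days, and at 464, 673 and 493 against 563, 421 and 420.04 at 4 weeks. Its groups were apart at 2 days (-0.57 ± 0.17, limma adjusted p = 0.321) and overlapped at 4 weeks. Cyp28d1 was at 2611, 3232 and 2412 against 2042, 2105 and 1924 on control diet and high sugar at 2 days, also apart, and at 4067, 3087 and 3910.3 against 3656, 3136 and 2721 at 4 weeks. Cyp28d1 had a 2-day value of -0.43 ± 0.13 (adjusted p = 0.325). Cyp6a23 gave 2188, 3024 and 2229.7 against 2112, 1259.8 and 2172 at 2 days, and 4380.1, 3586 and 3884 against 3229, 3109 and 2927 at 4 weeks. The 2-day groups of Cyp6a23 were apart, with high-sugar array 2 far below the others, at -0.45 ± 0.18 (adjusted p = 0.524), and -0.20 without that array. Cyp6d5 was at 7355, 7883 and 8598 against 7255, 6055 and 7198 at 2 days on control diet and high sugar, and at 7465, 8842 and 8042 against 7350.5, 6641 and 5829.9 at 4 weeks, so its high-sugar arrays lay under control at both times, with an average of -0.26 ± 0.07 (limma adjusted p = 0.0695). Cyp6t3, a faint signal, read higher on high sugar at 2 days, from 17.4, 19.7 and 16.9 on control diet to 22.3, 26.3 and 27.8 on high sugar, and overlapped at 4 weeks, from 32.9, 19.6 and 23.2 to 28.9, 25.4 and 34.7. Its 2-day value was 0.50 ± 0.22 (adjusted p = 0.551).

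In the CYP4 and mitochondrial clades, Cyp313a1 read 3488, 3248 and 3250.2 on control diet and 4838, 3389 and 4065 on high sugar at 2 days, and 1804, 3033 and 2837 against 4459, 3802 and 3667 at 4 weeks. The 4-week groups of Cyp313a1 were apart, at 0.67 ± 0.17 (limma adjusted p = 0.0651), with control array 1 the lowest of all. It passed without control array 2 (0.0328), after quantile normalization (0.0404) and after median centring (0.043), and was 0.43 without control array 1. Cyp4aa1 scattered within every group, from 65.0, 43.4 and 84.6 to 103, 71.7 and 130.1 at 2 days and from 32.2, 112 and 73.3 to 132, 107 and 64.7 at 4 weeks, and values of 0.67 ± 0.41 and 0.60 ± 0.41 missed the threshold. The 4-week value of Cyp4aa1 was 0.10 without control array 1. Cyp12c1 read 445, 565 and 448 against 559, 404 and 503 at 2 days on control diet and high sugar, and 709, 836 and 852 against 669, 481 and 309 at 4 weeks. On high sugar at 4 weeks Cyp12c1 was below all control arrays, but its own arrays spread widely (-0.78 ± 0.22, adjusted p = 0.0976). The value was -0.49 without array 3 of that group, and passed at -1.05 without array 1 (0.0262). Cyp12a5 stayed between 589 and 710.5 on all 12 arrays, with diet values of 0.05 and -0.02.

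Marker genes of the tissues that express P450 enzymes differed in part with diet at 4 weeks, where 0.806% of all genes were higher and 1.12% lower. Of 16 tested midgut genes, of 22 listed, 3 fell, all of them serine proteases (log2 fold changes of -3.55 for Jon25Bi, -2.31 for Jon99Ci and -1.35 for epsilonTry). The summed intensity of the 16 was 72436 to 86228 on control diet and 53135 to 66018 on high sugar at 4 weeks, against 72695 to 85141 and 69381 to 74922 at 2 days. Of 8 tested Malpighian tubule genes, of 11 listed, 1 fell, Oat (-0.86), with sums of 7274 to 7928 and 7213 to 7784 that overlapped. Of 11 tested fat body genes, of 12 listed, 1 rose, the lipid droplet gene Lsd-2 (0.33), with sums of 56439 to 60872 and 59489.6 to 60859. Of 7 tested oenocyte genes, of 8 listed, 1 rose, FASN2 (0.78), and 2 fell, FASN3 (-0.56) and FarO (-0.60), with sums of 22953 to 23561 and 22654 to 23807. Neurons had 1 of 12 tested genes higher (Syn, 0.57), and none of 10 muscle, 19 testis, 13 accessory gland and 2 yolk protein genes passed at an adjusted p under 0.05. The neuron values ran from 0.03 to 0.57, with sums of 5868 to 6754 on control diet and 7594 to 8215 on high sugar. Muscle values ran from 0.07 to 0.70, with sums of 18466 to 22081 and 21849 to 23702. Testis values ran from -0.52 to 0.01 and accessory gland values from -0.27 to 0.30. At 2 days none of these markers passed. The part of these tissue differences in the P450 values was not tested.

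Between 2 days and 4 weeks, P450 transcripts were more often higher than lower on both diets. On control diet 23 rose and 8 fell, 41.3% of the 75 against 33.1% of all genes, and on high sugar 21 rose and 4 fell, 33.3% against 42.6% of all genes. By direction, 30.7% of the P450 genes and 14.3% of all genes rose on control diet, while 10.7% and 18.8% fell. On high sugar the shares were 28.0% and 19.9% for genes that rose and 5.33% and 22.7% for genes that fell. The median P450 log2 fold change was 0.15 on control diet and 0.16 on high sugar, against -0.01 and 0.03 over all genes. The count of 31 on control diet fell to 18 without 2-day control array 1, to 14 without 2-day control array 3 and to 19 without 4-week control array 1. On high sugar the count of 25 stayed between 17, without 2-day high-sugar array 2, and 26. With the replicate number as a block, the control-diet calls of Cyp318a1, Cyp4d21, Cyp4s3, Cyp6w1 and Cyp9f2 were lost. So were the high-sugar calls of Cyp305a1, Cyp311a1, Cyp6a19 and Cyp6a8. The median was 0.21 on control diet without 4-week control array 1, and on high sugar 0.12 without 2-day array 2 and 0.25 without 4-week array 3. Of the P450 genes that missed the threshold, 10 of 44 on control diet and 10 of 50 on high sugar passed in at least 1 alternative.

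The comparisons on the 2 diets share no arrays, but both come from 1 fit with a common spread for each gene. Their calls are therefore not independent. A total of 19 P450 genes passed on both, each in the same direction, 25.3% of the 75 against 25.1% of all genes. Of these 15 were higher and 4 lower, where 10.1% of all genes were higher on both diets and 14.9% lower. The 19 are 61.3% of the 31 on control diet and 76.0% of the 25 on high sugar, against 75.7% and 58.8% for all genes. By clade, the counts stand beside 14.3% of all genes that rose and 18.8% that fell on control diet, and 19.9% and 22.7% on high sugar. The CYP3 clade supplied 13 that rose and 3 that fell on control diet and 14 and 2 on high sugar, of 36 tested. In the CYP4 clade 6 rose and 4 fell on control diet and 7 and 1 on high sugar, of 28 tested. Of the 8 mitochondrial genes 3 rose on control diet and none passed on high sugar at an adjusted p under 0.05, where 2 had an unadjusted p under 0.05, as did 51% of all genes. Of the 3 tested CYP2 genes 1 rose and 1 fell on control diet and 1 fell on high sugar. A gene that passed on one diet and not on the other is not shown to differ between them, since no P450 gene passed the test of that difference.

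The largest rises with time were in the CYP4 clade. Cyp4e3, whose arrays are given above, rose by 1.54 ± 0.48 on the log2 scale on control diet (limma adjusted p = 0.0278) and by 2.88 ± 0.48 on high sugar (0.000653), 7.34-fold. Its control-diet call was lost without 2-day control array 1 or 3 or 4-week control array 1 or 2, or with no filter or with robust eBayes (up to 0.107). Cyp4d1 gave 118, 151 and 132 on control diet at 2 days and 412, 295 and 342 at 4 weeks, and 148, 54.6 and 135 against 288, 346 and 270.04 on high sugar. All its 4-week arrays lay above all its 2-day arrays, with log2 fold changes of 1.38 ± 0.29 on control diet (limma adjusted p = 0.00388) and 1.54 ± 0.29 on high sugar (0.00126). Cyp4ac3 rose from 322, 378 and 234 to 635, 489 and 655 on control diet and from 409.9, 249 and 267 to 641, 564 and 748 on high sugar. Again the times did not overlap on either diet, at 0.95 ± 0.21 (adjusted p = 0.00535) and 1.10 ± 0.21 (0.00138).

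The neighbouring genes Cyp4p1 and Cyp4p2 rose together. Cyp4p1 went from 438, 561 and 364 at 2 days to 993, 696 and 1104 at 4 weeks on control diet and from 443, 327 and 485 to 863, 846 and 1060.4 on high sugar. The times were apart on both diets, at 1.03 ± 0.20 (limma adjusted p = 0.0028) and 1.15 ± 0.20 (0.000872). Cyp4p2 went from 286, 250.4 and 208 to 991, 367 and 994 on control diet and from 289, 148 and 294 to 381, 479.6 and 608 on high sugar. No array overlapped between times, although 4-week control array 2 lay far under the other controls. Cyp4p2 rose by 1.53 ± 0.36 on control diet (adjusted p = 0.00663) and by 1.05 ± 0.36 on high sugar (0.0305), and its high-sugar call was lost without 2-day high-sugar array 2 or 4-week high-sugar array 2 or 3, or with no filter or with robust eBayes (up to 0.141). The third gene beside them, Cyp4p3, gave -0.24 and -0.13 and did not pass (limma adjusted p = 0.149 and 0.387).

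In the CYP3 clade, Cyp309a1 and Cyp309a2, both lower on high sugar, were higher at 4 weeks on either diet. Cyp309a1 rose by 1.16 ± 0.16 on control diet (limma adjusted p = 0.000273) and 0.98 ± 0.16 on high sugar (0.000499). Cyp309a2 rose by 0.56 ± 0.12 (0.00469) and 0.37 ± 0.12 (0.0244). By the arrays given above, the times were apart on both diets for either gene. The high-sugar call of Cyp309a2 was lost without 2-day high-sugar array 2 or 4-week high-sugar array 1 or 3 (adjusted p up to 0.118).

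The Cyp6a subfamily, the largest with 13 genes, had 6 that rose and 1 that fell on control diet and 7 that rose on high sugar. Among all genes tested, 14.3% rose and 18.8% fell on control diet and 19.9% rose on high sugar. Cyp6a13 (0.80 on control diet and 0.74 on high sugar), Cyp6a22 (0.64 and 0.70), Cyp6a23 (0.68 and 0.78), Cyp6a9 (0.64 and 0.57) and Cyp6a16 (0.61 and 0.53) rose on both diets on the log2 scale. Cyp6a14 rose on control diet (0.68, limma adjusted p = 0.0221), and its high-sugar value was 0.04. Cyp6a8 (0.82, adjusted p = 0.0411) and Cyp6a19 (0.50, 0.0361) rose on high sugar, with control-diet values of 0.71 and -0.08. Cyp6a18 read 842, 769.8 and 1171 at 2 days and 483, 834 and 485 at 4 weeks on control diet, which overlapped, and 780.2, 957 and 685 against 565, 626 and 442 on high sugar. It fell by 0.65 ± 0.22 on control diet (limma adjusted p = 0.0405), and its high-sugar value was -0.57 (0.0564). The calls of Cyp6a13 and Cyp6a22 on both diets and Cyp6a23 on high sugar held in all alternatives, and that of Cyp6a16 on control diet in all but a stricter filter, under which it was not tested. On control diet the call of Cyp6a14 was lost without 2-day control array 1 or 3 or 4-week control array 3, or with no filter (adjusted p up to 0.0995), and that of Cyp6a18 without 2-day control array 1 or 3, 2-day high-sugar array 1 or 4-week control array 1 or 3, or with no filter, with an untrended eBayes, in a fit of only the arrays compared or after quantile normalization (up to 0.165). Cyp6a23 lost its control-diet call without 2-day control array 1 or 3 or 4-week control array 1 (up to 0.0578), and Cyp6a9 without 2-day control array 3 or 4-week control array 1 or 3 (up to 0.0704). On high sugar Cyp6a8 lost its call without 2-day high-sugar array 1 or 2 or 4-week high-sugar array 1 or 2, or with no filter, with an untrended eBayes, with robust eBayes or in a fit of only the arrays compared (up to 0.189), Cyp6a19 without 2-day high-sugar array 1 or 3 or 4-week high-sugar array 2 or 3, or with no filter (up to 0.128), Cyp6a9 without 2-day high-sugar array 2 or 4-week high-sugar array 3 (up to 0.0985) and Cyp6a16 without 2-day high-sugar array 2 (0.0547).

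Further CYP3 genes rose with time. Cyp9b1 rose by 0.54 ± 0.17 on control diet (limma adjusted p = 0.0291) and 0.96 ± 0.17 on high sugar (0.00097), and Cyp28d1 by 0.42 ± 0.13 (0.0293) and 0.64 ± 0.13 (0.00259). Cyp6w1 gave 5429.9, 5603 and 5165 at 2 days and 6624, 6434 and 7455 at 4 weeks on control diet, and 5335, 3599 and 3919.7 against 5239, 5509 and 5954 on high sugar. Its times were apart on control diet and overlapped on high sugar, with rises of 0.34 (0.0418) and 0.40 (0.0164) on the log2 scale. On control diet Cyp9h1 (0.75, adjusted p = 0.00623) and Cyp9f2 (0.21, 0.0481) rose, and on high sugar Cyp6d2 (0.81, 0.00187) and Cyp28a5 (0.36, 0.0323). On control diet Cyp9b1 lost its call without 2-day control array 1 or 3 or 4-week control array 1 or 2, or with no filter (up to 0.128), and Cyp28d1 without 2-day control array 1 or 3 or 4-week control array 1 or 3, or with no filter or in a fit of only the arrays compared (up to 0.12). Those of Cyp6w1 were lost without 2-day control array 1, 2 or 3, 4-week control array 1 or 3 or 4-week high-sugar array 2, or with no filter, with an untrended eBayes or with array weights on control diet (up to 0.127) and without 2-day high-sugar array 2 or 3 or 4-week high-sugar array 3 on high sugar (up to 0.0812). Cyp9f2 lost its call without 2-day control array 1, 2 or 3, 2-day high-sugar array 2, 4-week control array 2 or 3 or 4-week high-sugar array 1, 2 or 3, or with no filter, with an untrended eBayes or in a fit of only the arrays compared (up to 0.132), and Cyp28a5 without 2-day high-sugar array 2 or 3 or 4-week high-sugar array 1 (up to 0.131).

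**Figure D4:**
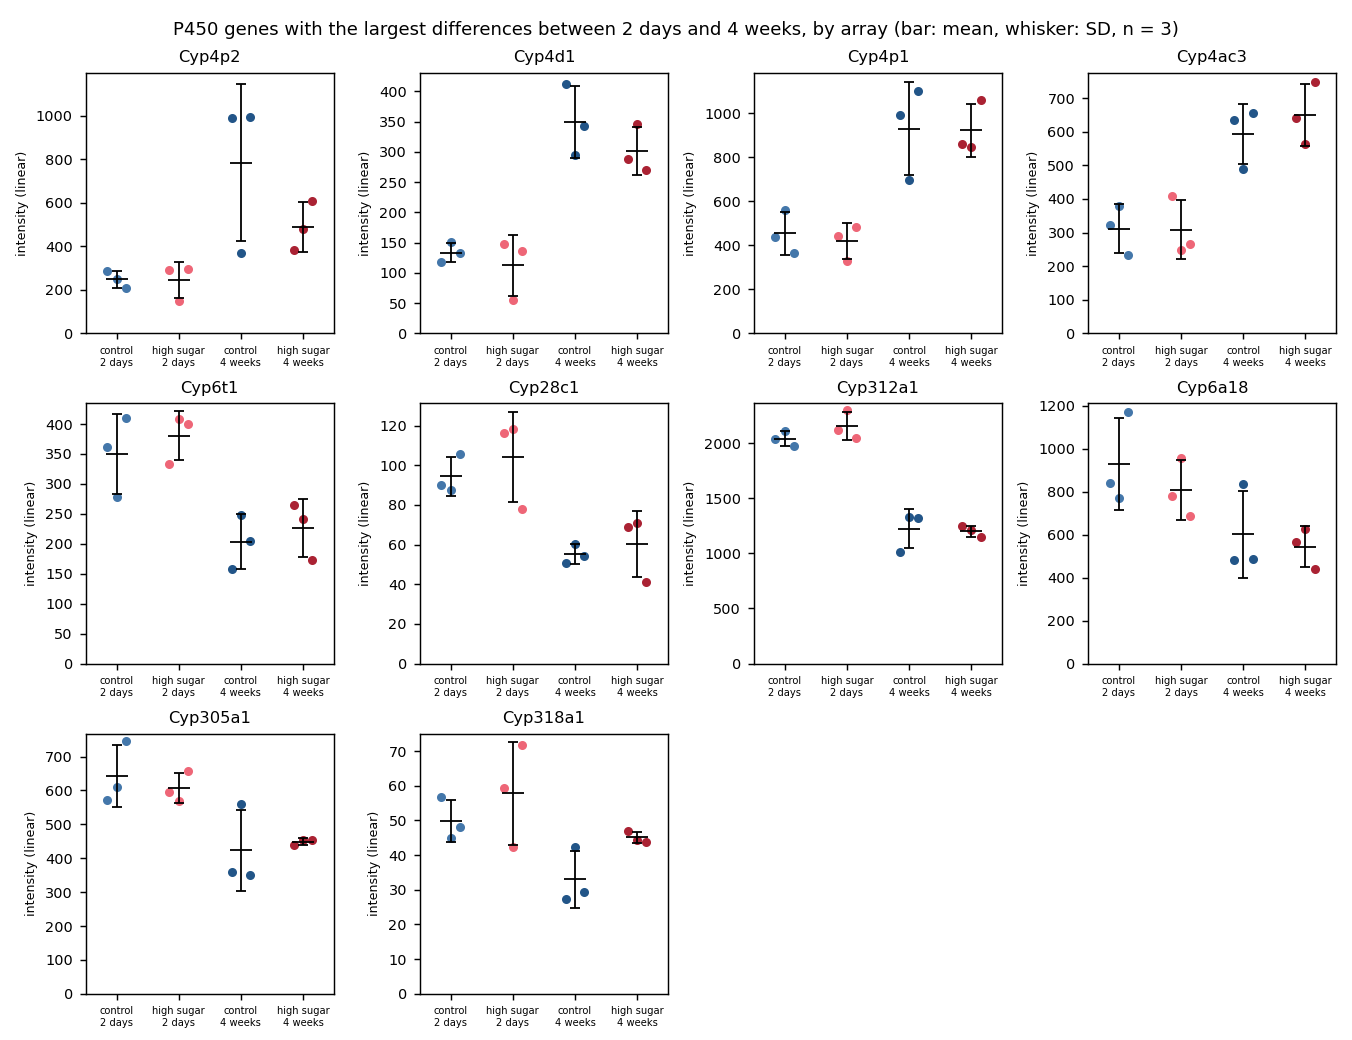
Intensity (linear, y axis from 0) by array of the P450 genes with the largest rises and falls between 2 days and 4 weeks, without Cyp4e3 and Cyp309a1, whose arrays stand in the plot of the diet calls; points are arrays, the bar is the mean and the whisker the SD of 3 arrays. Cyp4d1, Cyp4p1, Cyp4p2 and Cyp4ac3 are higher on all 4-week arrays than on all 2-day arrays, and Cyp312a1 is lower on all of them.

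Fewer P450 genes fell with time, and 4 did so on both diets. Cyp312a1 went from 2038, 2112 and 1969.9 to 1017, 1333 and 1319 on control diet and from 2118, 2295 and 2048 to 1244, 1216 and 1146 on high sugar. It fell by 0.75 ± 0.11 (limma adjusted p = 0.000358) and 0.84 ± 0.11 (0.000147) on the log2 scale, with no overlap, and held in all alternatives. Cyp6t1 went from 361, 279 and 409.9 to 158, 249 and 204 on control diet and from 334, 408 and 399.6 to 265, 241 and 173 on high sugar, also with no overlap, at -0.79 ± 0.20 (0.00947) and -0.77 ± 0.20 (0.00762). Cyp28c1 went from 90.01, 87.7 and 106 to 50.8, 60.5 and 54.3 on control diet and from 117, 118 and 77.9 to 69.1, 70.8 and 41.2 on high sugar. Its times were apart on both diets, at -0.77 ± 0.21 (limma adjusted p = 0.0138) and -0.80 ± 0.21 (0.0081), and its control-diet call was lost without 2-day control array 3 or 4-week control array 1 (up to 0.0566).

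Cyp305a1, of the CYP2 clade, went from 572, 610.4 and 746 to 359, 561 and 350.4 on control diet and from 596, 569 and 657 to 438, 455 and 455 on high sugar. All 4-week arrays were under all 2-day arrays, at -0.63 ± 0.16 on control diet (limma adjusted p = 0.0118) and -0.43 ± 0.16 on high sugar (0.0476). The control-diet call was lost without 2-day control array 3 or 4-week control array 1 (up to 0.0566). The high-sugar call was lost without 2-day control array 1 or 2, 2-day high-sugar array 1, 2 or 3 or 4-week high-sugar array 1, 2 or 3, or with no filter, with an untrended eBayes, after median centring or after quantile normalization (up to 0.133). Its clade mate Cyp304a1 rose on control diet, from 35.3, 39.9 and 27.0 to 54.0, 48.1 and 84.5, and read 37.9, 46.3 and 51.4 against 50.8, 58.9 and 44.0 on high sugar. The Cyp304a1 times were apart on control diet (0.84 ± 0.22, limma adjusted p = 0.0119) and overlapped on high sugar (0.18, 0.523), and the call was lost without 2-day control array 3 (0.0557). Cyp18a1 did not pass on either diet (0.16 and 0.36, adjusted p = 0.506 and 0.111).

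Of the CYP4 genes that passed on 1 diet, Cyp318a1, Cyp4g15 and Cyp4d21 fell and Cyp4s3 rose on control diet. Cyp318a1 went from 56.6, 44.9 and 48.2 to 27.3, 42.5 and 29.3 on control diet and read 59.4, 42.2 and 71.7 against 47.0, 44.4 and 43.9 on high sugar. Its control-diet times were apart, at -0.62 ± 0.21 (limma adjusted p = 0.0356), a call lost without 2-day control array 1 or 3 or 4-week control array 1 or 3, or with no filter or in a fit of only the arrays compared (up to 0.136). Cyp4g15, by the arrays given above, fell by 0.58 ± 0.14 on control diet (0.00776) in all alternatives, against 0.13 on high sugar. Cyp4d21, also known as sex-specific enzyme 1, fell by 0.57 (0.0451), a call lost without 2-day control array 1 or 3, 2-day high-sugar array 1, 2 or 3, 4-week control array 1 or 4-week high-sugar array 2, or with no filter, with an untrended eBayes, with robust eBayes or in a fit of only the arrays compared (up to 0.199), with a value of -0.34 without 4-week control array 1. Cyp4s3 rose by 0.41 (0.0473), and lost its call without 2-day control array 1 or 3, 2-day high-sugar array 3, 4-week control array 1 or 2 or 4-week high-sugar array 1 or 2, or with no filter, with an untrended eBayes or in a fit of only the arrays compared (up to 0.161). On high sugar Cyp4e2 rose by 0.37 (limma adjusted p = 0.00238) in all alternatives, and Cyp311a1 by 0.35 (0.044), a call lost without 2-day control array 2, 2-day high-sugar array 1 or 2, 4-week control array 2 or 4-week high-sugar array 1, 2 or 3, or in a fit of only the arrays compared (up to 0.171).

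Apart from Cyp49a1 and Cyp301a1, all tested mitochondrial genes belong to the Cyp12 family. The mitochondrial genes that rose on control diet were all of that family. They were Cyp12c1 (0.72 ± 0.22, limma adjusted p = 0.0267), Cyp12d1-d (0.66 ± 0.20, 0.0255) and Cyp12e1 (0.57 ± 0.12, 0.00331). By the arrays given above, Cyp12c1 and Cyp12d1-d were higher on all control-diet arrays at 4 weeks than at 2 days. Their high-sugar values were -0.06, 0.46 and 0.30, with adjusted p of 0.838, 0.0838 and 0.0545. The Cyp12d1-d value was 0.24 without 2-day high-sugar array 2. Cyp12e1 held in all alternatives. Cyp12c1 lost its call without 2-day control array 1 or 3 or 4-week control array 2 or 3, or with no filter (up to 0.085), and Cyp12d1-d without 2-day control array 1 or 3 or 4-week control array 1, or with no filter (up to 0.119). The other family members gave 0.01 (Cyp12a4), 0.00024 (Cyp12a5) and -0.31 (Cyp12b2, -0.16 without 4-week control array 1) on control diet and did not pass.

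Many P450 genes lie in tandem groups, so values were set in chromosomal order, with names and order from the RefSeq gene table of assembly Release 6 plus ISO1 MT. Allowing up to 2 other protein-coding genes between neighbours gave 17 groups with 48 P450 genes. Of the 41 tested genes in groups, 20 passed in at least 1 of the time comparisons, and of the 34 tested genes outside, 17 did, which is 48.8% and 50%, against 50.6% of all genes. The largest group held 9 genes on 2R (Cyp6a22, Cyp6a17, Cyp6a23, Cyp6a19, Cyp6a9, Cyp6a20, Cyp6a21, Cyp6a8 and Cyp317a1). Of these, 3 rose on control diet and 5 on high sugar, where 14.3% and 19.9% of all genes rose. Within this group, time values on control diet ran from -0.50 (Cyp6a17, -0.28 without 4-week control array 1) to 0.71 (Cyp6a8). In the X group of Cyp4d1, Cyp4d14, Cyp4d2 and Cyp4ae1, the values on high sugar were 1.54, 0.18, 0.15 and -0.07, and Cyp4d1 passed. On 2L, Cyp4ac3 passed on both diets and its neighbours Cyp4ac1 (0.15 and 0.15) and Cyp4ac2 (0.41 and 0.36) did not, and of the pair Cyp28d1 and Cyp28d2 only the former passed (-0.21 and -0.08 for Cyp28d2). Differences between neighbours were not tested. Probe sets of close paralogs may share signal, which was not tested here.

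**Figure D5:**
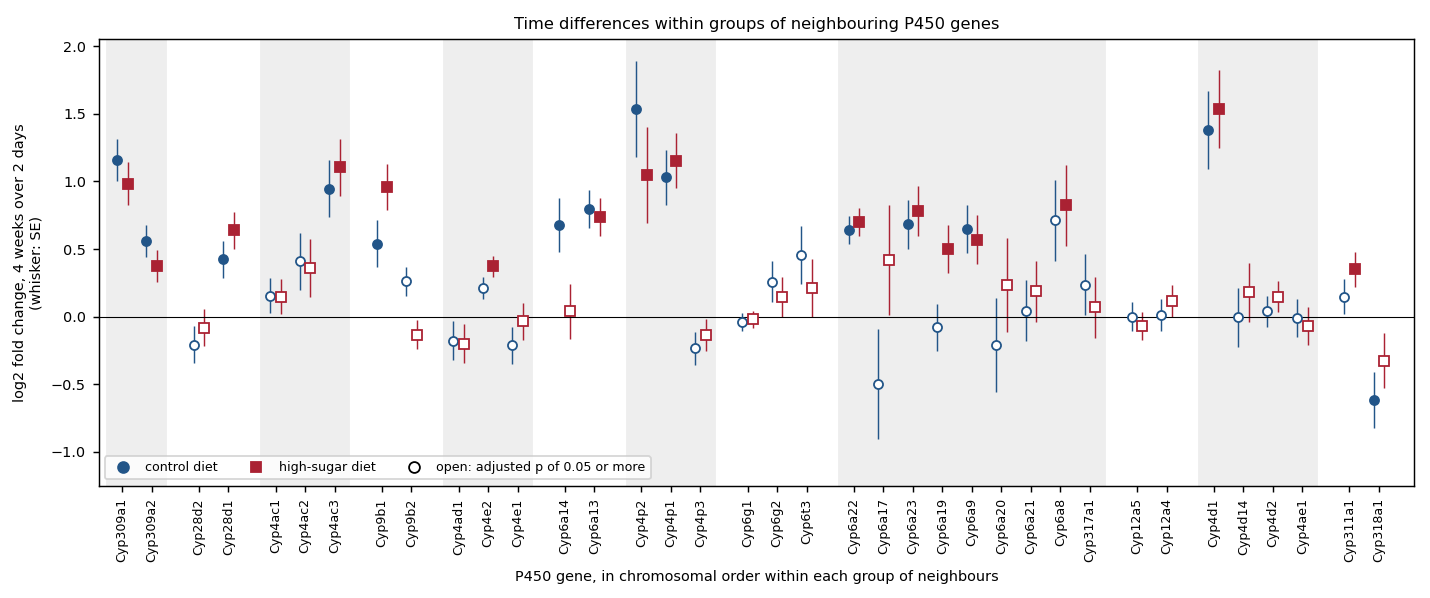
Log2 fold change of 4 weeks over 2 days (y axis) on control diet (circles) and high sugar (squares) for tested P450 genes in groups of neighbours (x axis, in chromosomal order; shading alternates between groups), with standard error whiskers; filled points have a limma adjusted p under 0.05. The Cyp309a pair is filled on both diets, while Cyp4p3, Cyp4ac1 and Cyp28d2 are open beside filled neighbours.

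The proteins that serve P450 enzymes were read from lists chosen by function. With time, 14.3% of all genes rose and 18.8% fell on control diet, and 19.9% and 22.7% on high sugar. Of 5 tested redox partners, of 7 listed, none passed by diet. Cytochrome P450 reductase was not among the tested genes. By diet the partners' values ran from -0.30 to -0.03 at 2 days and from -0.22 to 0.11 at 4 weeks. Their summed intensity at 2 days was 22516 to 23993 on control diet and 20427 to 21317 on high sugar. At 4 weeks it was 23316 to 24639 on control diet and 22269 to 22982 on high sugar. Fdx2, a ferredoxin, fell with time on both diets (-0.31 on control diet, limma adjusted p = 0.0364, and -0.41 on high sugar, 0.0074), while Fdx1 (0.39, 0.0141) and the cytochrome b5-related gene Cyt-b5-r (0.37, 0.0019) rose on high sugar. The electron donor Cyt-b5 gave -0.04 and -0.05, and CG5946 0.09 and 0.14, and neither passed. Of 7 tested heme synthesis genes, of 8 listed, none passed by diet, 2 rose with time on control diet (Urod by 0.45 and FeCH, the ferrochelatase, by 0.23) and 3 on high sugar (Urod by 0.58, FeCH by 0.49 and Uros1 by 0.39). Of 12 tested regulators of xenobiotic and hormone responses, of 13 listed, none passed by diet. The oxidative stress factor cnc and its partner maf-S rose with time on both diets (0.21 and 0.44 for cnc, 0.56 and 0.64 for maf-S), as did the ecdysone receptor EcR (0.43 and 0.52). Keap1, which restrains cnc, rose on control diet (0.51), and Hnf4 (0.33) and usp (0.57) rose on high sugar. Hr96, a nuclear receptor of xenobiotic and lipid responses, gave -0.52 and -0.68 by diet at 2 days and 4 weeks and did not pass (limma adjusted p = 0.658 and 0.198). Of 6 ecdysteroid P450 genes that carry other symbols, dib and shd were tested and passed in no comparison, with 4-week diet values of 0.21 and 0.16.

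Tissue markers also differed between times, where 14.3% of all genes rose and 18.8% fell on control diet and 19.9% and 22.7% on high sugar. Of 10 tested muscle genes, of 14 listed, 10 fell on control diet and 9 on high sugar (medians -0.91 and -0.80), with summed intensities of 37085 to 42441 and 38385 to 44399.6 at 2 days and 18466 to 22081 and 21849 to 23702 at 4 weeks on control diet and high sugar. Of 13 tested accessory gland genes, of 14 listed, 10 fell and 1 rose on control diet and 11 fell and 2 rose on high sugar, with sums of 99514 to 108063 and 98256 to 111715 at 2 days and 61799 to 74324 and 59352 to 69257 at 4 weeks. Of 19 tested testis genes, of 20 listed, 13 fell and 1 rose on control diet and 15 fell on high sugar, with sums of 68336 to 72632 and 63908 to 71254 and then 52307 to 57378 and 46820.2 to 52562. Most tested muscle, accessory gland and testis markers were lower at 4 weeks on either diet. Among fat body genes 3 rose and 2 fell of 11 on control diet and 6 rose and 1 fell on high sugar (sums of 57362 to 59079.7 and 54702 to 56062, then 56439 to 60872 and 59489.6 to 60859). Malpighian tubule genes had 1 higher and 1 lower of 8 on control diet and 3 higher and 1 lower on high sugar, midgut genes 1 lower of 16 and 5 lower, oenocyte genes 3 lower of 7 and then 1 higher and 3 lower, and neuron genes 5 lower of 12 and 3 lower. Sums were 7273 to 8191 and 7113 to 7504 for tubule genes, 24366 to 26194 and 24981 to 27512 for oenocyte genes and 8274 to 8879.9 and 8443 to 9236 for neuron genes at 2 days on control diet and high sugar, and 5868 to 6754 and 7594 to 8215 for neuron genes at 4 weeks. Of 2 tested genes of yolk proteins, which females make, of 3 listed, 1 rose on both diets, with sums of 110.2 to 115 and 109.8 to 119 at 2 days and 128 to 233 and 139 to 186 at 4 weeks. The part of these tissue differences in the time values of the P450 genes was not tested.

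Of the 75 tested P450 genes, 40 passed in at least 1 of the 6 comparisons (53.3%, against 51.8% of all genes) and 35 in none. Among the 35 were Cyp4g1, Cyp6d5, Cyp6a2, Cyp12a4, Cyp12a5, Cyp6g2, Cyp301a1 and Cyp18a1. Cyp4c3 was the only tested P450 gene with an array at or under the floor. The remaining Cyp4d genes, Cyp4d8, Cyp4d14, Cyp4d2 and Cyp4d20, gave time values on control diet of 0.21, -0.01, 0.04 and -0.17, beside 1.38 for Cyp4d1. The missed threshold of a gene does not show that its groups were alike: the median standard error of a P450 log2 fold change was 0.16.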

How the data were processed

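Total RNA from adult males was labelled with biotin and hybridized to Affymetrix arrays, per the labels' protocols. The values are linear intensities that the authors deposited for each array; per the series' design text they came from dChip, version 2006, with perfect and mismatch probes, normalized between arrays. Array medians lie between 86.97 and 93.43. The reference array, the genome build and detection calls are not given in the sources used here. The number of arrays, not read depth, limits the precision.

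Of 18869 probe sets, 100 controls were left out, 13647 name 1 gene, 402 several and 4720 none. Symbols were updated by gene ID through RefSeq's gene table (13544 probe sets matched). It holds 85 P450 genes by the rule, of which 4 (Cyp12d1-p, Cyp9f3 and 2 pseudogenes) have no probe set of their own name here and are not analysed here. Intensities were floored at the pooled 20th percentile (11.8) and log2-transformed, the dimmest 30% of probe sets by mean (intensity under 19.7) were dropped, and the highest-mean probe set was kept, which left 10418 genes. The intensities given in the text are the deposited ones.

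limma 3.58.1 in R 4.3.3 fitted the 4 group means on all 12 arrays (eBayes with a mean trend, from 8 degrees of freedom among arrays and 5.00 of the prior) and tested 6 contrasts: diet at each time, its average and difference, and time on each diet. Benjamini-Hochberg adjustment ran over all 10418 genes for each contrast. The fit was also run on simulated data with known changes, with noise drawn independently for each gene and array. That run does not test the fit where genes shift together on an array. The labels call the replicates biological; nothing says how they were raised, so the spread may be partly technical.

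The P450 genes, their clades and the other lists (redox partners, ecdysteroid P450 genes with other symbols, xenobiotic regulators, heme synthesis and markers of 9 tissues or products) were chosen with earlier results of these data known. Full values are given for P450 genes past the threshold by diet, the 6 highest and 6 lowest past it in each time comparison, the 3 brightest of each clade, the 10 largest diet differences at each time, and genes with a listed role. Alternatives changed the normalization, floor, filter, eBayes settings, arrays and probe set rule. Each was fitted and adjusted over all genes then tested, and its calls are given here for the P450 genes only.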

Additional observations from a re-analysis of the deposited data

How the results depend on the processing

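The main fit called 4 P450 genes by diet at 4 weeks. That count was 0 with no filter on low signal, 1 with eBayes without a trend and 0 with the replicate block. It was 2 in a fit of only the arrays compared, and 0 to 7 with 1 array left out. All counts in this paragraph include genes that only the alternative called. The average over both times gave 3 with no filter, 4 without a trend and 4 with the replicate block instead of 7, and 2 to 9 with 1 array left out. Over time on control diet the count was 19 with no filter instead of 31, and 14 to 32 with 1 array left out. On high sugar it was 17 to 26 with 1 array left out, instead of 25. At 2 days the diet count was 0 to 1 with 1 array left out, and the difference of the diet effects gave 0 under every alternative. In the fit with the replicate block, time counts were 27 on control diet and 21 on high sugar; the replicate numbers mark no shared animal or day in the labels, the deviations of same-numbered arrays correlated at -0.23 to 0.15 (4 of 18 pairs over 0.1), and the block estimates 2 more terms from the same arrays. With no filter more genes enter both the eBayes trend and the adjustment. The cause of the shifts was not tested. The fit of only the arrays compared gives no average and no difference.

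No called value changed direction under any alternative. All alternatives kept 13 of the 31 calls over time on control diet, 14 of the 25 on high sugar, 2 of the 7 average diet calls (Cyp309a1 and Cyp4s3) and 0 of the 4 at 4 weeks; Cyp6a16 on control diet and Cyp28c1 on high sugar were also kept wherever tested, but the 50% filter dropped them. Outside the calls and the 10 largest diet values at each time, some values changed sign: 29 of 65 by diet at 2 days, 26 of 64 at 4 weeks, 18 of 44 over time on control diet and 20 of 50 on high sugar. Intensities near the floor and near the top of the range limit what a fold change can show.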
